A study of Rattus norvegicus with 18 samples.

Results

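The brain transcriptome of rats that had inhaled carbon monoxide (CO) was compared with that of untreated rats, gene by gene and by gene family. The comparison took every library labelled CO and every library labelled NC, 6 of each, and so 12 of the 18 libraries of the series; the other 6, from a group named CLCF1, entered the filter, the scaling and the estimate of the spread but no comparison. NC rats were wild type and untreated. CO rats were wild type and breathed carbon monoxide at 1000 ppm for 40 min and then at 3000 ppm for 20 min, with a carboxyhemoglobin level above 60%. All libraries came from tissue labelled only as brain; the labels used here do not give the strain, age, sex, the part of the brain or the time between exposure and sampling. The series text also describes depleting and replacing macrophages with liposomes, and does not say for which group.

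Carbon monoxide binds haemoglobin and cytochrome oxidase in place of oxygen, so that oxygen delivery to tissue and its use in mitochondria both fall. The brain, with its constant demand for oxygen, is the organ in which poisoning is best known to leave damage. Low oxygen, strong neuronal firing and stressed blood vessels each switch on genes of their own: transporters and enzymes of glycolysis, immediate early transcription factors, and vascular and inflammatory signals.

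Each library held 15111830 to 20339652 counts in NC and 15513910 to 16850232 in CO. Of 34873 genes listed, 16581 had enough counts to be tested. Levels are given below as CPM, the usual counts-per-million unit, after scaling of the libraries, changes as log2 fold changes of CO against NC with their standard errors (SE), and a gene is said to have risen or fallen only where its p, from edgeR's quasi-likelihood test adjusted over the 16581 genes, was under 0.05. Nothing in the labels says that the 6 libraries of a group are 6 animals, so the p-values rest on the spread from library to library, and that spread may be technical. Markers of the labelled tissue were there in every library: the summed level of 12 neuronal markers was 5663 to 6310 CPM in NC and 7149 to 7703 in CO, and that of 10 astrocyte markers 6739 to 9485 and 5458 to 9435 (1 of 10 fell). Cldn5, a defining gene of brain endothelium, was listed at 0 in every library, and Pecam1, another endothelial marker, is not in the table.

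In each group libraries 03 to 06 were more like libraries 01 and 02 than like each other, and no gene was detected in them that both of those lacked. The p-values below count all 6 libraries as separate samples, and this pattern bears on every one of them. In NC, 13670 genes had no count in libraries 01 and 02, and none of these (0 of 13670) had a single count in any of libraries 03 to 06. In CO the same was true of 14473 genes, of which 0 had a count in libraries 03 to 06. In the other direction, 388 of 14058 genes at 0 in NC 03 to 06, and 295 of 14768 in CO, did have counts in library 01 or 02. Across genes, log2 levels in CO 03 to 06 correlated with CO 01 and 02 at 0.958 to 0.962 but among themselves at 0.941 to 0.943; in NC the ranges were 0.959 to 0.966 and 0.949 to 0.951. Counts within a group still differed by far more than sampling noise, with chi-square values of 43.2 to 78.6 per degree of freedom. Results are therefore given for libraries 01 and 02 and for 03 to 06 side by side. The cause of the pattern was not tested.

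**Figure D1:**
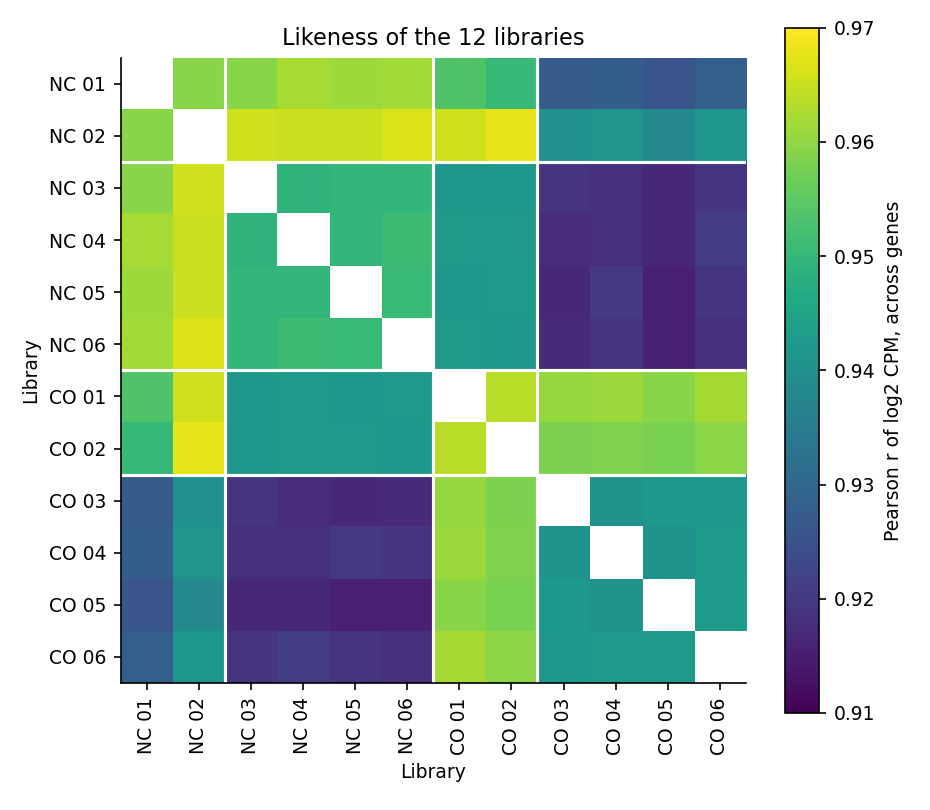
Pearson correlation of log2 CPM across genes for each pair of the 12 libraries, with white lines between libraries 01 and 02 and libraries 03 to 06 of each group. NC 03 to 06 against CO 03 to 06 gave the lowest values (0.915 to 0.921), whereas NC 01 and 02 against CO 01 and 02 gave 0.95 to 0.968.

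Exposure to CO was followed by changes in 12.7% of the genes tested: 1048 rose (6.32%) and 1062 fell (6.4%). Rises outnumbered falls among the most abundant genes, and falls outnumbered rises among scarce ones. Among genes that passed, rises were smaller than falls. A scarce gene needs a larger change to pass, so size and level are not separated here. Of the genes that rose, 63.5% changed by less than 1 on the log2 scale, with a median of 0.75; of those that fell, 33.5% did, with a median of -1.31. A change of 2 or more was found for 148 genes that rose and 291 that fell. Among genes with a mean of 100 CPM or more, 176 rose and 16 fell.

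When the tested genes were ordered by mean level and cut into quartiles at 3.69, 15.9 and 48.4 CPM, 286 rose and 494 fell in the lowest quartile, 201 and 359 in the second, 225 and 157 in the third, and 336 and 52 in the highest. The median log2 fold change of all genes in these quartiles went from -0.17 to -0.09, 0.02 and 0.10. Libraries 01 and 02 alone gave -0.19, -0.10, 0.00 and 0.10, and libraries 03 to 06 gave -0.17, -0.09, 0.02 and 0.09. Scaling by library size alone, in place of the trimmed mean of M-values (TMM), shifted the median of all genes from 0.01 to -0.04 and the calls to 804 higher and 1195 lower, and the highest quartile then held 217 genes that rose and 86 that fell, while the third then held 164 and 189, with more falls than rises. Fewer genes were detected after CO as well. The number of genes with 1 CPM or more was 15007 and 15190 in NC 01 and 02 and 14986 to 15032 in NC 03 to 06, against 14892 and 14805 in CO 01 and 02 and 14486 to 14572 in CO 03 to 06. The groups did not overlap, with a mean of 15037 ± 76.7 (SD, n = 6) against 14641 ± 165 (SD, n = 6) and a two-sided exact permutation p of 0.00217, the smallest that 924 splits can give, or 0.0217 adjusted over the 10 library summaries tested. All genes listed on the mitochondrial genome, of which 25 were tested, took 13.3% ± 2.02 of counts in NC and 10.7% ± 0.87 in CO (SD, n = 6 each). The difference did not pass (exact permutation p = 0.013, adjusted 0.0649).

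**Figure D2:**
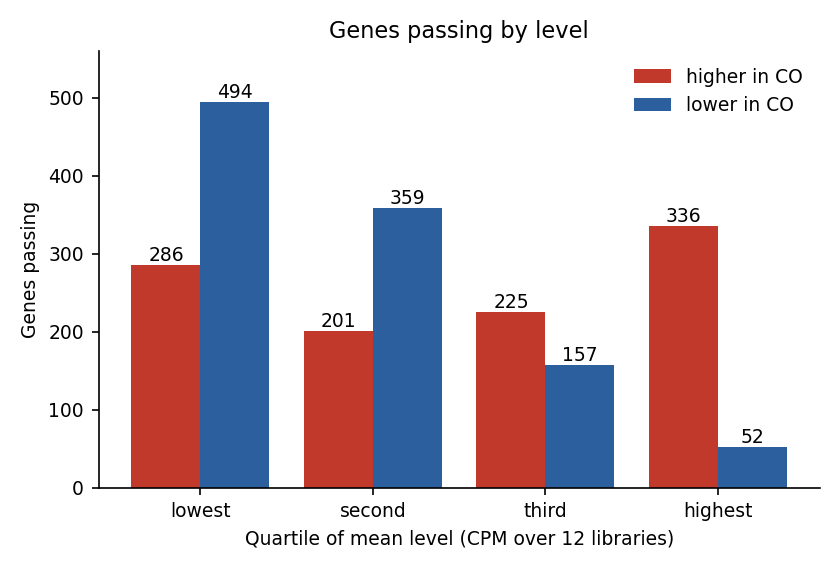
Number of genes passing the test, higher (red) or lower (blue) in CO, in each quartile of the tested genes by mean CPM over the 12 libraries. In the lowest quartile 286 rose and 494 fell, and in the highest 336 rose and 52 fell.

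Libraries 01 and 02 moved the same way as libraries 03 to 06 and by less. The sign in libraries 01 and 02 was that of the call for 1040 of 1041 genes that rose and 1046 of 1046 that fell; the call itself used these libraries. Across the 16442 genes with a value in both sets, the log2 fold changes correlated at 0.818 (a description across genes, which are not independent, for sets that are not shown to be separate samples). Their SD was 0.683 in libraries 01 and 02 and 0.961 in 03 to 06. Genes that rose had a median of 0.59 in libraries 01 and 02 and 0.84 in 03 to 06, and genes that fell had -0.91 and -1.51. Tested alone, libraries 01 and 02 gave 4 higher and 0 lower genes with edgeR (594 genes, 3.53%, at an unadjusted p under 0.05) and 38 higher and 15 lower with DESeq2, whereas libraries 03 to 06 gave 367 and 551. The 6 CO and 6 NC libraries did not overlap at all in 451 of the genes that rose and 471 of those that fell, beside 6.35% of all tested genes. Within libraries 01 and 02 they did not overlap in 847 and 861, beside 34.1% of all tested genes.

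**Figure D3:**
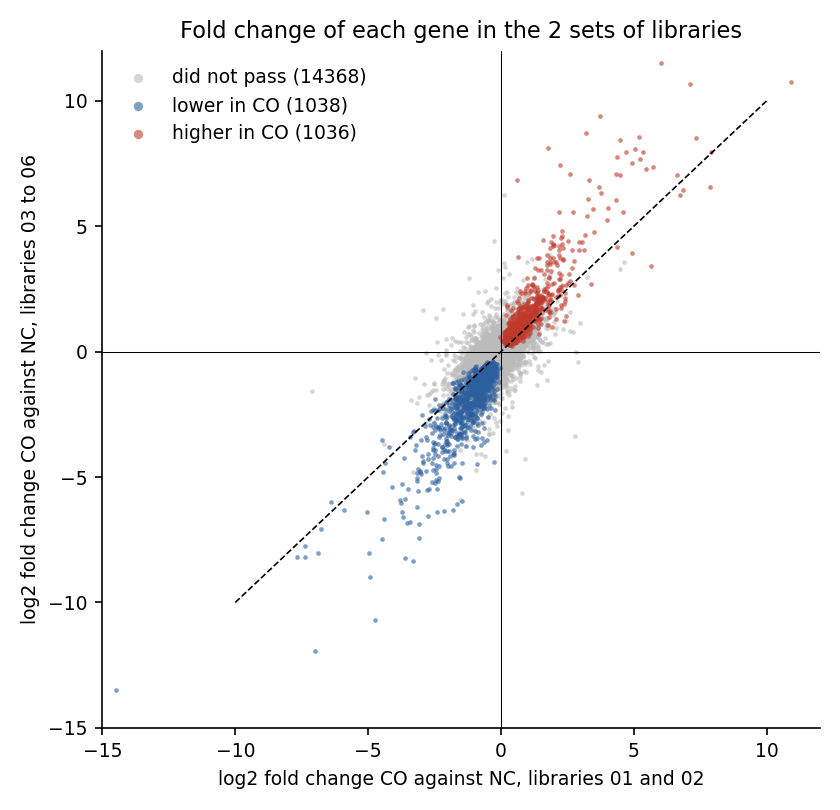
Log2 fold change of each tested gene with a value in both sets, in libraries 01 and 02 (x axis) and in libraries 03 to 06 (y axis), coloured by the call over all 12 libraries; the dashed line marks equal values. Genes that passed lie on the same side of 0 in both sets with few exceptions, and most lie beyond the line, with the larger value in libraries 03 to 06 for 86.3% of those that rose and 91.8% of those that fell.

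Transcription factors that couple signals at the membrane to gene expression were among the genes that rose. Of 49 tested genes with symbols of the bZIP factors (Fos, Jun, Atf, Creb, Maf and Cebp families, which bind DNA as dimers through a leucine zipper), 14 rose and 1, Atf7 (-1.61), fell; Cebpzos (0.85) is counted among the 14 by its symbol but is not in the table's bZIP class. Their median was 0.15 (0.23 in libraries 01 and 02, 0.18 in 03 to 06) beside 0.01 over all genes. The table's own classification into factor families gave 15 higher (33.3%) and 1 lower of 45 bZIP genes. Besides the immediate early genes Fos (1.68) and Fosb (2.88), the members that rose included Fosl2 (3.14), Nfe2l3 (3.06), Maff (2.45), Cebpb (1.96), Nfil3 (1.65) and Jdp2 (0.93).

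Crem encodes the cAMP response element modulator, whose inducible short form represses its own promoter and other genes driven by cAMP. Its level was 20.7 and 15.9 CPM in NC 01 and 02 and 3.94 to 15.3 in NC 03 to 06 (median of the 6, 10.7). Crem in CO was at 69.5 and 55.8 in libraries 01 and 02 and 34.5 to 63.9 in 03 to 06 (median 55.8). All CO libraries lay above all NC libraries, and the log2 fold change of Crem was 2.24 ± 0.37 (SE; adjusted p = 0.00132), with 1.76 in libraries 01 and 02 and 2.64 in 03 to 06.

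The cAMP response element, the palindrome TGACGTCA and so the same on both strands, was searched for in windows from 250 bases before to 50 after the start of each gene, taken from RefSeq (build GRCr8) and matched to 11116 of the tested genes. It stood in 3.05% of these windows, in 5.35% of those of genes that rose (35 of 654) and in 1.08% of those of genes that fell (7 of 646), beside 1.91% of the 27457 windows of all genes. Abundant genes held it more often, so the shares were also taken within each quartile of mean level: from the lowest to the highest quartile, 2.09%, 2.84%, 3.17% and 4.10% of all tested genes held it, and 4.46%, 4.00%, 4.73% and 7.14% of those that rose. These shares are descriptions, and a match of letters is not a site shown to be bound. Crem has 3 windows, of which the one farthest upstream, used in the count, holds no match, the second holds 1 and the third holds 2. The third is printed here because its gene rose and it holds the element on either side of the start, and the windows of Slc25a25 and Ppp1r15a because these genes, described further on, rose and hold 1 match each. The element is in capitals. The windows lie at chr17:58985240-58985539 (plus strand), chr3:36116532-36116831 (minus strand) and chr1:105139547-105139846 (minus strand), with the element starting at -35 and 39, at -158 and at -66 from the gene's start.
Crem: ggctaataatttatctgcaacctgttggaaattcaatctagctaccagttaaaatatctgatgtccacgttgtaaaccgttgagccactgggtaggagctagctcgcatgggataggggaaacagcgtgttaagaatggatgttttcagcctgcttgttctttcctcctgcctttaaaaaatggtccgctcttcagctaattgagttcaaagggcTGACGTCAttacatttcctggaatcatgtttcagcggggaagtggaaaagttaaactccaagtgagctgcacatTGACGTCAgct
Slc25a25: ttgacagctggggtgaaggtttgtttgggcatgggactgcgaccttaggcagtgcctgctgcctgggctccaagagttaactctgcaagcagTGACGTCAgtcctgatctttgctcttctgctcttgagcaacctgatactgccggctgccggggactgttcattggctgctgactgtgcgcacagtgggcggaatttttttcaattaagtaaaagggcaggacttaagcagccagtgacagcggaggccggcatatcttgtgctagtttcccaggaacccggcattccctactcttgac
Ppp1r15a: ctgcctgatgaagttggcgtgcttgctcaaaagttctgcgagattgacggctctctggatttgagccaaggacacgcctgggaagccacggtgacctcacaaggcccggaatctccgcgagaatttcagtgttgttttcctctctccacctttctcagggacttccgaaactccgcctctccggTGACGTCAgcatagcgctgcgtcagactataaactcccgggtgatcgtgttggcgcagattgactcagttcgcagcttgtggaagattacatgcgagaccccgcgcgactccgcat

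Other motifs were searched in the same windows, on both strands unless stated. An NF-kB site was in 4.97% of the windows of tested genes, 7.65% of those of genes that rose (50 of 654), 4.18% of those that fell (27 of 646) and 4.15% of all promoters; among the 169 genes that rose by 1 or more on the log2 scale the share was 13.6%, and in the same 169 it was 4.14% for the cAMP response element and 7.69% for the AP-1 site. In the 2 lower quartiles of mean level it was in 5.90% and 4.93% of all tested genes and in 11.5% and 9.60% of those that rose, and in the upper quartiles in 4.10% and 4.97% against 3.38% and 6.70%. The AP-1 site TGANTCA was in 4.97% of all windows, 4.74% of those that rose and 5.11% of those that fell, and the hypoxia response core ACGTGC in 7.82%, 9.48% and 5.73%. The E-box CACGTG, which can share letters with that core, was in 9.16%, 11% and 6.35%. In all promoters these 3 were in 7.3%, 5.82% and 6.64%. The other 8 motifs are given as shares of all tested windows, of those that rose, of those that fell and of all promoters. The CCAAT box CCAAT was in 37.0%, 37.8%, 34.8% and 37.8%, and the antioxidant response core TGACNNNGC in 14.5%, 15.4%, 13.6% and 12.2%. The heat shock pair GAANNTTC was in 5.54%, 6.57%, 5.26% and 8.34%, and the TATA box TATAAA, searched on the gene's strand alone, in 4.57%, 5.81%, 5.26% and 9.08%. The EGR site GCGGGGGCG was in 5.2%, 6.27%, 4.49% and 2.79%. The other 3 were scarce: the D-box TTATGTAA was in 0.414%, 0.765%, 0.929% and 0.874%, the CArG box in 1.24%, 1.53%, 2.17% and 1.66%, and the glucocorticoid response element in 0.261%, 0.306%, 0.155% and 0.422%. Windows of Hes1, Rara and Map3k8, genes that rose and are described below, are printed because each holds the NF-kB site, in capitals. They lie at chr11:84212996-84213295 (minus strand), chr10:84411217-84411516 (plus strand) and chr17:58077925-58078224 (plus strand), and the matches start at -7, at -209 and -208 (overlapping), and at 0.
Hes1: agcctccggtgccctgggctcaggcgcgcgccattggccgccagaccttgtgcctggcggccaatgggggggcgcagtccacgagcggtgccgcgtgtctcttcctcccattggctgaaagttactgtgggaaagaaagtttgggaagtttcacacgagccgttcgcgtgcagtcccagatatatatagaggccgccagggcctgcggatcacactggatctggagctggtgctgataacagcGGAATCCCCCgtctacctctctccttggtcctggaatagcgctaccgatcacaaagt
Rara: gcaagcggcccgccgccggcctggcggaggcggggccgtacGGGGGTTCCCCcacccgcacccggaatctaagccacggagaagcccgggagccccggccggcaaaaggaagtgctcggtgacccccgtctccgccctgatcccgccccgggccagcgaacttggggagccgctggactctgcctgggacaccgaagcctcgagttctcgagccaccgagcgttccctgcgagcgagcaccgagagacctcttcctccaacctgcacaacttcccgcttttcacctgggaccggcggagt
Map3k8: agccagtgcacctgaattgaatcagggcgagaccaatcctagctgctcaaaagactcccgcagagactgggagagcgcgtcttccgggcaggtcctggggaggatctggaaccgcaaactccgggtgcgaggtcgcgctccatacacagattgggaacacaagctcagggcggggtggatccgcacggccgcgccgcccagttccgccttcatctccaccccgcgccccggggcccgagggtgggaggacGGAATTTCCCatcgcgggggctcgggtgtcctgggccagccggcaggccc

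Nuclear receptors are transcription factors switched by hormones, vitamins and lipids. Of 33 tested, 6 rose and 0 fell (13 and 2 at edgeR's unadjusted p under 0.05, 6 and 1 with DESeq2), with a median of 0.14 (0.20 in libraries 01 and 02, 0.09 in 03 to 06); besides the immediate early members Nr4a1 (1.74) and Nr4a3 (3.54) these include Esrra (0.52), Rara and Vdr. Rara, a receptor for retinoic acid, stood at 11.9 and 12 CPM in NC 01 and 02 and 9.95 to 16.2 in NC 03 to 06 (median of the 6, 12). Rara in CO was at 19.7 and 21.9 in libraries 01 and 02 and 20.9 to 25.4 in 03 to 06 (median 22.2). Every CO library was above every NC library, and the log2 fold change of Rara was 0.85 ± 0.15 (SE; adjusted p = 0.00156), with 0.79 in libraries 01 and 02 and 0.88 in 03 to 06. Vdr, the vitamin D receptor, was close to undetected in NC, at 0.265 and 0 CPM in NC 01 and 02 and 0 to 0.113 in NC 03 to 06 (median of the 6, 0.0561). Vdr in CO was at 0.897 and 1.1 in libraries 01 and 02 and 0.318 to 1.76 in 03 to 06 (median 1.02). These levels rest on 0 to 4 counts a library in NC and 5 to 28 in CO; the fitted log2 fold change of Vdr was 3.65 ± 0.62 (SE; adjusted p = 0.00151), with 2.95 in libraries 01 and 02 and 4.07 in 03 to 06, and 4.39 without NC 01.

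Basic helix-loop-helix factors changed in both directions, 5 up (10.2%) and 5 down (10.2%) of 49 tested, beside 6.32% and 6.4% of all genes. Hes1, a repressor that is the classic target of Notch, stood at 10 and 10.5 CPM in NC 01 and 02 and 4.61 to 10.5 in NC 03 to 06 (median of the 6, 8.68). Hes1 in CO was at 23.7 and 18 in libraries 01 and 02 and 17.8 to 31.5 in 03 to 06 (median 22.2). The groups did not overlap, and the log2 fold change of Hes1 was 1.49 ± 0.24 (SE; adjusted p = 0.00118), with 1.01 in libraries 01 and 02 and 1.75 in 03 to 06. Its relatives moved the other way: Hes5 (-1.11) and Hey2 (-1.2), which also answer to Notch, fell. Bhlhe40, a clock and stress repressor, rose by 0.82 ± 0.2 (SE; adjusted p = 0.0116) with 0.88 in libraries 01 and 02 and 0.79 in 03 to 06, although the groups overlapped in libraries 03 to 06. Among growth response factors Egr1, an immediate early zinc finger factor, rose by 0.77 ± 0.17 (SE; adjusted p = 0.007) with 0.73 in libraries 01 and 02 and 0.78 in 03 to 06; its lowest CO library, at 337 CPM, was above its highest NC library, at 298.

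Zfp189, a zinc finger repressor of the KRAB type, was 19.2 and 17 CPM in NC 01 and 02 and 6.35 to 16.3 in NC 03 to 06 (median of the 6, 14). Zfp189 in CO was at 41.3 and 53.5 in libraries 01 and 02 and 34.5 to 44.6 in 03 to 06 (median 42.4). No CO library fell within the NC range, and the change of Zfp189 was 1.72 ± 0.25 (SE; adjusted p = 0.000865), with 1.38 in libraries 01 and 02 and 1.95 in 03 to 06. Genes with symbols of C2H2 zinc fingers gave 12 higher and 16 lower of 327 tested, and the table's own C2H2 class 20 higher (5.04%) and 27 lower (6.8%) of 397, near the 6.32% and 6.4% of all genes. Of the 12 cortical and hippocampal markers 11 were tested: 3 rose and 0 fell, and their summed level was 1441 to 2111 CPM in NC and 2253 to 3026 in CO.

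Homeobox genes, which mostly mark regions and cell lineages, mostly fell where they changed. In the table's own classification 13 of 67 fell (19.4%) and 2 rose (2.99%). Those that fell included Shox2 (-4.53), Lhx9 (-3.22) and Irx1 (-2.48), which in the brain mark thalamus and midbrain neurons, and Meox2 (-2.59), a gene of brain vessels; Barx2 (1.33) was among those that rose. Ebf3, another developmental factor, stood at 10.1 and 0.926 CPM in NC 01 and 02 and 3.49 to 8.16 in NC 03 to 06 (median of the 6, 4.57). Ebf3 in CO was at 0.777 and 0.451 in libraries 01 and 02 and 0 to 0.127 in 03 to 06 (median 0.0951). NC 02 (0.926) was the closest of NC to the CO libraries, of which CO 01 (0.777) was the highest, and the log2 fold change of Ebf3 was -4.37 ± 0.74 (SE; adjusted p = 0.00143), with -3.17 in libraries 01 and 02 and -6.21 in 03 to 06 and -5.17 without CO 01. Foxd2, a forkhead factor of mesenchyme, fell by 2.89 ± 0.61 (SE; adjusted p = 0.00591) with -1.64 in libraries 01 and 02 and -3.5 in 03 to 06. Sox2, a factor of stem cells and glia, was 90.1 and 95.3 CPM in NC 01 and 02 and 77.4 to 121 in NC 03 to 06 (median of the 6, 93.3). Sox2 in CO was at 69 and 46.5 in libraries 01 and 02 and 47.4 to 72.7 in 03 to 06 (median 57.5). All its CO values lay below all its NC values, a change of -0.71 ± 0.15 (SE; adjusted p = 0.0054), with -0.7 in libraries 01 and 02 and -0.73 in 03 to 06.

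Markers that tell brain regions apart stand beside these values. The summed level of 12 markers of thalamic, midbrain and hindbrain neurons was 84.3 to 397 CPM in NC and 54.7 to 111 in CO; 9 were tested, 3 of them fell, and Hoxb3 and Hoxa5, which define the hindbrain, were at 0. Striatal markers summed to 236 to 1494 CPM in NC and 1223 to 2627 in CO (10 tested, 0 passed with edgeR or DESeq2, 2 higher at edgeR's unadjusted p), and hypothalamic ones to 13.8 to 21.9 and 24.0 to 323 (8 of 10 tested, 3 rose and 1 fell; Pmch at 0). Cerebellar markers stood at 211 to 306 and 197 to 297. The part that the region sampled plays in any gene's change was not tested.

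Kinases, phosphatases and G protein regulators are given beside the 6.32% of all tested genes that rose and the 6.4% that fell. Of 66 tested subunits of serine/threonine phosphatases 5 rose (7.58%) and 0 fell, of 28 MAP kinase phosphatases and Sprouty inhibitors 3 (10.7%) and 0, of 20 regulators of G protein signalling 2 (10.0%) and 0, and of 47 MAP kinases and their kinases 6 (12.8%) and 2 (4.26%). At edgeR's unadjusted p under 0.05 the first 3 families gave 11 and 3, 7 and 1, and 5 and 5, and with DESeq2 6 and 2, 4 and 0, and 3 and 1. Rgs2, which shortens signals through Gq-coupled receptors, stood at 37.6 and 56.2 CPM in NC 01 and 02 and 21.4 to 51.9 in NC 03 to 06 (median of the 6, 38.9). Rgs2 in CO was at 133 and 82 in libraries 01 and 02 and 83.9 to 119 in 03 to 06 (median 104). The groups did not overlap, with a change of 1.42 ± 0.27 (SE; adjusted p = 0.00344), 1.19 in libraries 01 and 02 and 1.56 in 03 to 06. Map3k8, a kinase of inflammatory ERK signalling, was scarce, at 1.52 and 0.972 CPM in NC 01 and 02 and 0.393 to 1.19 in NC 03 to 06 (median of the 6, 1.02). Map3k8 in CO was at 2.39 and 3.48 in libraries 01 and 02 and 1.51 to 3.3 in 03 to 06 (median 3.1). Its highest NC library (1.52) lay just above its lowest CO library (1.51); the change of Map3k8 was 1.61 ± 0.34 (SE; adjusted p = 0.00588), with 1.22 in libraries 01 and 02 and 1.85 in 03 to 06.

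Ppp1r15a encodes GADD34, which restores translation after stress by directing a phosphatase to eIF2α, and its promoter is printed above. Its level was 29 and 28.8 CPM in NC 01 and 02 and 21.2 to 39.7 in NC 03 to 06 (median of the 6, 25.8). Ppp1r15a in CO was at 49 and 32.6 in libraries 01 and 02 and 33.3 to 54.2 in 03 to 06 (median 42). The groups overlapped, and the change of Ppp1r15a was 0.63 ± 0.17 (SE; adjusted p = 0.0233), with 0.49 in libraries 01 and 02 and 0.7 in 03 to 06; the adjusted p passed 0.05 without CO 04 (0.0514), NC 03 (0.0506) or NC 05 (0.0521). Dusp10, a phosphatase of the stress kinases JNK and p38, rose by 0.8 ± 0.2 (SE; adjusted p = 0.0157) with 0.71 in libraries 01 and 02 and 0.83 in 03 to 06. Irs2, which carries insulin and IGF signals, rose by 0.88 ± 0.23 (SE; adjusted p = 0.0175) with 0.93 in libraries 01 and 02 and 0.84 in 03 to 06, and Epha2, an ephrin receptor, by 0.81 ± 0.2 (SE; adjusted p = 0.014) with 0.72 in libraries 01 and 02 and 0.85 in 03 to 06. In each of these 3 genes the 6 CO libraries lay above the 6 NC libraries.

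Several ion channels and transmitter receptors of neurons rose. Of 80 potassium channel genes tested, 11 rose (13.8%) and 0 fell, with a median of 0.20 (0.25 in libraries 01 and 02, 0.18 in 03 to 06). They were Kcnk12 (1.65), Kcng3 (1.49), Kcnk5 (1.25), Kcnk3 (0.86), Kcnh1 (0.78), Kcnj9 (0.65), Kcnk13 (0.61), Kcnt2 (0.61), Kcnj11 (0.58), Kcnk4 (0.51) and Kcnt1 (0.41), and the 5 Kcnk genes among them are tandem pore leak channels, which set resting potential. The absence of falls depends on the tool: at an unadjusted p under 0.05 17 were higher and 6 lower with edgeR, DESeq2's adjusted p passed 13 higher and 4 lower, and in libraries 03 to 06 alone edgeR passed 5 and 1. Kcnj9, a subunit of the GIRK channels that inhibitory receptors open, stood at 52.1 and 54.4 CPM in NC 01 and 02 and 43.3 to 66.5 in NC 03 to 06 (median of the 6, 53.2). Kcnj9 in CO was at 63.4 and 87.9 in libraries 01 and 02 and 74.6 to 101 in 03 to 06 (median 86.9). Its groups overlapped by a small margin, with a change of 0.65 ± 0.14 (SE; adjusted p = 0.0056), 0.49 in libraries 01 and 02 and 0.71 in 03 to 06. Kcnk12, a leak channel, stood at 4.71 and 4.63 CPM in NC 01 and 02 and 1.52 to 7.19 in NC 03 to 06 (median of the 6, 4.67). Kcnk12 in CO was at 11.8 and 9.48 in libraries 01 and 02 and 10.5 to 23.8 in 03 to 06 (median 12). Here no CO library lay within the NC range, and the change was 1.65 ± 0.35 (SE; adjusted p = 0.00588), with 1.18 in libraries 01 and 02 and 1.82 in 03 to 06.

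Glutamate receptors gave 4 rises and 0 falls of 28 tested (median 0.14; 0.10 in libraries 01 and 02, 0.15 in 03 to 06); at an unadjusted p under 0.05 edgeR gave 8 and 1, and DESeq2's adjusted p 4 and 1. Grm2 (0.82), a presynaptic metabotropic receptor, Grin1 and Grin3b rose, as did Grina (0.37). Grina is counted among the 4 by its symbol but is not a glutamate receptor subunit. Grin1, the subunit present in every NMDA receptor, stood at 216 and 268 CPM in NC 01 and 02 and 230 to 285 in NC 03 to 06 (median of the 6, 252). Grin1 in CO was at 326 and 340 in libraries 01 and 02 and 305 to 391 in 03 to 06 (median 333). The groups did not overlap, and the change of Grin1 was 0.43 ± 0.09 (SE; adjusted p = 0.00699), with 0.45 in libraries 01 and 02 and 0.42 in 03 to 06. Grin3b, an NMDA subunit that lowers calcium entry, was 3.18 and 4.63 CPM in NC 01 and 02 and 2.42 to 4.15 in NC 03 to 06 (median of the 6, 3.6). Grin3b in CO was at 7.65 and 6.83 in libraries 01 and 02 and 5.34 to 11.3 in 03 to 06 (median 7.24). It rose by 1.2 ± 0.24 (SE; adjusted p = 0.00463), with 0.88 in libraries 01 and 02 and 1.35 in 03 to 06 and no overlap. Gabrd, the delta subunit of GABA-A receptors outside the synapse, stood at 47.3 and 58.4 CPM in NC 01 and 02 and 44.4 to 49.5 in NC 03 to 06 (median of the 6, 48.4). Gabrd in CO was at 74.9 and 91.3 in libraries 01 and 02 and 77.9 to 124 in 03 to 06 (median 83). All CO libraries exceeded all NC libraries, by 0.85 ± 0.17 (SE; adjusted p = 0.00492), with 0.64 in libraries 01 and 02 and 0.95 in 03 to 06. Adora1, the adenosine receptor that damps transmitter release, rose by 0.48 ± 0.12 (SE; adjusted p = 0.0162) with 0.26 in libraries 01 and 02 and 0.6 in 03 to 06.

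Some receptors and channels fell. Of 43 receptors for biogenic amines and acetylcholine 4 fell (9.3%, beside 6.4% of all genes) and 1 rose (2.33%, beside 6.32%). Chrnb3, Chrm5 (-2.34), Adrb3 (-2.05) and Htr1a fell, and Chrna5 (0.82) rose. Htr1a, the serotonin autoreceptor of the raphe that is also found in hippocampus, stood at 5.7 and 5.14 CPM in NC 01 and 02 and 3.94 to 6.13 in NC 03 to 06 (median of the 6, 5.42). Htr1a in CO was at 2.15 and 2.19 in libraries 01 and 02 and 0.945 to 2.9 in 03 to 06 (median 2.18). The groups did not overlap in Htr1a, whose change was -1.28 ± 0.23 (SE; adjusted p = 0.00225), with -1.33 in libraries 01 and 02 and -1.26 in 03 to 06. Chrnb3, a nicotinic subunit of midbrain neurons, was 1.52 and 1.25 CPM in NC 01 and 02 and 0.954 to 4.22 in NC 03 to 06 (median of the 6, 1.52). Chrnb3 in CO was at 0.179 and 0.709 in libraries 01 and 02 and 0 to 0.0635 in 03 to 06 (median 0.0633). Its change was -3.65 ± 0.81 (SE; adjusted p = 0.00771), with -1.65 in libraries 01 and 02 and -6.06 in 03 to 06 and -4.98 without CO 02; the CO values rest on 0 to 11 counts. Trpc5, a receptor-operated cation channel, stood at 5.96 and 7.92 CPM in NC 01 and 02 and 7.97 to 13.4 in NC 03 to 06 (median of the 6, 8.71). Trpc5 in CO was at 3.11 and 4.64 in libraries 01 and 02 and 0.635 to 4.54 in 03 to 06 (median 3.75). It fell without overlap, by 1.51 ± 0.38 (SE; adjusted p = 0.016), with -0.85 in libraries 01 and 02 and -1.81 in 03 to 06. Scn3a, a sodium channel of immature neurons, was lower by 0.73 ± 0.19 on the log2 scale (SE; adjusted p = 0.0193), with -0.36 in libraries 01 and 02 and -0.93 in 03 to 06.

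Gpr4 stood apart from the neuronal receptors, as a proton-sensing receptor of endothelium. Its level was 7.95 and 6.2 CPM in NC 01 and 02 and 5.16 to 7.93 in NC 03 to 06 (median of the 6, 6.59). Gpr4 in CO was at 16.8 and 13.2 in libraries 01 and 02 and 13 to 23.3 in 03 to 06 (median 15.3). CO libraries were all higher, with a change of 1.29 ± 0.26 (SE; adjusted p = 0.00436), 1.07 in libraries 01 and 02 and 1.39 in 03 to 06. The neuronal markers moved with the channel and receptor genes: 4 of 12 rose and 0 fell, with a median of 0.26, and their summed level did not overlap between the groups. In bulk tissue a change in the share of cells of a type and a change in the RNA of each cell cannot be told apart.

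In glycolysis 6 of 35 tested genes rose and 0 fell (median 0.28; 0.21 in libraries 01 and 02, 0.32 in 03 to 06). At an unadjusted p under 0.05 16 were higher and 2 lower with edgeR, and DESeq2's adjusted p passed 9 and 0. In the citrate cycle 0 of 21 passed with edgeR or with DESeq2 (median 0.09; 3 higher and 1 lower at edgeR's unadjusted p). The 6 were Eno2, Pfkfb1 (3.55), Pdk4 (2.64), Pfkfb3 (0.74), Pkm (0.70) and Ldha (0.45); Pfkfb3 makes the activator of phosphofructokinase, and Pdk4 switches pyruvate away from the citrate cycle. Eno2, the neuronal enolase, varied widely between libraries, at 10.2 and 12 CPM in NC 01 and 02 and 1.24 to 2.92 in NC 03 to 06 (median of the 6, 2.87). Eno2 in CO was at 89.3 and 11.8 in libraries 01 and 02 and 41 to 277 in 03 to 06 (median 46.6). CO 05 held 277 CPM and CO 02, at 11.8, lay inside the NC range. The change of Eno2 was 4.05 ± 0.74 (SE; adjusted p = 0.00261), with 2.17 in libraries 01 and 02 and 5.57 in 03 to 06 and 3.18 without CO 05. Nuclear genes of the respiratory chain gave 4 higher (4.44%, beside 6.32% of all genes) and 0 lower of 90 (12 and 4 at edgeR's unadjusted p, 5 and 1 with DESeq2), and their median, 0.02, turned sign in libraries 03 to 06 (-0.02) and with scaling by library size alone.

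Slc25a25, an ATP-Mg and phosphate carrier of the inner mitochondrial membrane whose promoter is printed above, stood at 64.1 and 70.8 CPM in NC 01 and 02 and 64.4 to 90 in NC 03 to 06 (median of the 6, 69.3). Slc25a25 in CO was at 126 and 99.1 in libraries 01 and 02 and 70.7 to 196 in 03 to 06 (median 119). The groups overlapped, and the change of Slc25a25 was 0.74 ± 0.19 (SE; adjusted p = 0.0176), with 0.72 in libraries 01 and 02 and 0.74 in 03 to 06. In cholesterol synthesis and uptake 5 of 24 rose and 0 fell, Stard4 (0.72), Pmvk (0.50), Acat2 (0.37) and Idi1 among them, with a median of 0.15 (0.16 in libraries 01 and 02, 0.18 in 03 to 06); DESeq2 also gave 5 and 0, edgeR's unadjusted p 8 and 1, and in libraries 03 to 06 alone edgeR passed 0 (4 higher and 1 lower unadjusted). Idi1, which makes the isoprene unit for sterols, rose by 0.37 ± 0.1 (SE; adjusted p = 0.0192) with 0.37 in libraries 01 and 02 and 0.37 in 03 to 06. Elovl4, which elongates very long chain fatty acids, stood at 57.1 and 59.5 CPM in NC 01 and 02 and 41.9 to 55.4 in NC 03 to 06 (median of the 6, 53.1). Elovl4 in CO was at 69 and 80.2 in libraries 01 and 02 and 81.2 to 107 in 03 to 06 (median 82). Its CO libraries were all above NC, by 0.71 ± 0.12 (SE; adjusted p = 0.00152), with 0.34 in libraries 01 and 02 and 0.88 in 03 to 06.

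Chaperones and folding enzymes gave 13 rises and 3 falls of 92 tested (median 0.09; 0.10 in libraries 01 and 02, 0.10 in 03 to 06). The rises included Hspa8 (1.17), the constitutive Hsp70 of the cytosol, Bag3 (1.04), Dnajb1 (0.64) and Dnajb4, their partners, and Pdia3 (0.36), which forms disulfide bonds in the endoplasmic reticulum. Dnajb4 stood at 57.9 and 64.5 CPM in NC 01 and 02 and 47.4 to 78.8 in NC 03 to 06 (median of the 6, 62). Dnajb4 in CO was at 99.5 and 99 in libraries 01 and 02 and 92.6 to 127 in 03 to 06 (median 100). No library of CO fell within the NC range, and the change of Dnajb4 was 0.75 ± 0.12 (SE; adjusted p = 0.0011), with 0.68 in libraries 01 and 02 and 0.78 in 03 to 06. Fkbp9, a prolyl isomerase of the endoplasmic reticulum, went the other way, with a change of -0.99 ± 0.22 (SE; adjusted p = 0.00824), with -0.91 in libraries 01 and 02 and -1.04 in 03 to 06. Txnip, which binds thioredoxin and restrains glucose uptake, stood at 105 and 101 CPM in NC 01 and 02 and 65.6 to 93.8 in NC 03 to 06 (median of the 6, 93.1). Txnip in CO was at 43.2 and 57.2 in libraries 01 and 02 and 15.1 to 48.3 in 03 to 06 (median 36.7). It fell without overlap, with a change of -1.28 ± 0.24 (SE; adjusted p = 0.00273), -1.05 in libraries 01 and 02 and -1.46 in 03 to 06.

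Falls outnumbered rises in the extracellular matrix. Of 13 genes of laminins and basement membrane 7 fell and 0 rose, with DESeq2 too (8 and 1 at edgeR's unadjusted p): Nid1, Lamc3, Lama4 (-1.2), Lama2 (-1.17), Nid2 (-1.07), Lama1 (-0.95) and Lama5 (-0.81), with a median of -0.81 (-0.42 in libraries 01 and 02, -0.85 in 03 to 06). Of 38 collagens 8 fell and 0 rose (12 and 2 at edgeR's unadjusted p, 10 and 1 with DESeq2; median -0.35, with -0.37 and -0.28 in the sets of libraries), and of 34 small proteoglycans and matricellular proteins 9 fell and 1 rose (median -0.45; -0.40 and -0.46). In libraries 03 to 06 alone the numbers that fell were 2, 1 and 6. Of 10 markers of fibroblasts and meninges 5 fell, with a summed level of 496 to 656 CPM in NC and 203 to 624 in CO. Col1a1 (-1.28), Col1a2 (-2.74), Dcn (-1.24) and Lum (-0.93) among them are already counted in the collagens and proteoglycans above. Of 10 markers of pericytes and smooth muscle 3 fell (271 to 360 against 121 to 231 CPM). Vtn (-1.53) among these is already counted with the matricellular proteins. The part of these cells in the changes was not tested.

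Nid1, or nidogen, links laminin to collagen IV in basement membranes, and stood at 53.5 and 43.3 CPM in NC 01 and 02 and 19.5 to 195 in NC 03 to 06 (median of the 6, 55.7). Nid1 in CO was at 21.1 and 31.8 in libraries 01 and 02 and 4 to 19.8 in 03 to 06 (median 18.1). The groups overlapped, NC 03 stood far above the rest, and the change of Nid1 was -2.02 ± 0.48 (SE; adjusted p = 0.0112), with -0.89 in libraries 01 and 02 and -2.64 in 03 to 06 and -1.42 without NC 03. Lamc3, a laminin gamma chain, was 6.36 and 4.03 CPM in NC 01 and 02 and 3.59 to 7.93 in NC 03 to 06 (median of the 6, 5.47). Lamc3 in CO was at 2.27 and 2.64 in libraries 01 and 02 and 0.882 to 2.71 in 03 to 06 (median 2.25). Its groups did not overlap, with a change of -1.45 ± 0.3 (SE; adjusted p = 0.00577), -1.09 in libraries 01 and 02 and -1.66 in 03 to 06. Col27a1, a fibrillar collagen, fell by 0.84 ± 0.21 (SE; adjusted p = 0.0142), with -0.43 in libraries 01 and 02 and -1.11 in 03 to 06. Itgb4, the integrin of hemidesmosomes and of arterial endothelium, stood at 22.5 and 28.7 CPM in NC 01 and 02 and 19.3 to 80 in NC 03 to 06 (median of the 6, 25.6). Itgb4 in CO was at 20.8 and 12.2 in libraries 01 and 02 and 1.64 to 6.74 in 03 to 06 (median 5.98). CO 01 lay inside the NC range, and the change of Itgb4 was -1.99 ± 0.48 (SE; adjusted p = 0.0119), with -0.64 in libraries 01 and 02 and -3.06 in 03 to 06.

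Thbs1 and Thbs2, a pair of thrombospondins, went opposite ways. Thbs1, an early response gene that activates TGF-beta and restrains vessel growth, stood at 3.98 and 6.02 CPM in NC 01 and 02 and 3.88 to 7.8 in NC 03 to 06 (median of the 6, 4.63). Thbs1 in CO was at 16.7 and 12.1 in libraries 01 and 02 and 11.1 to 15.6 in 03 to 06 (median 13.3). Thbs1 rose by 1.39 ± 0.33 (SE; adjusted p = 0.0117), with 1.51 in libraries 01 and 02 and 1.33 in 03 to 06. Thbs2, its relative, was 15.6 and 11.3 CPM in NC 01 and 02 and 8.98 to 18.1 in NC 03 to 06 (median of the 6, 11.8). Thbs2 in CO was at 5.5 and 6.83 in libraries 01 and 02 and 2.86 to 5.48 in 03 to 06 (median 5.06). Thbs2 changed by -1.41 ± 0.24 (SE; adjusted p = 0.0014), with -1.14 in libraries 01 and 02 and -1.6 in 03 to 06, and in neither gene did the groups overlap.

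Growth factors, their receptors and binding proteins are given beside the 6.32% of all tested genes that rose and the 6.4% that fell. Of 52 genes of the TGF-beta, BMP and activin families 5 rose (9.62%), Bmp3 (1.11) and Tgfb2 (0.74) among them, and 1 fell (1.92%). Of 40 genes of Wnt signalling 3 rose (7.5%), Wnt10a (0.92) among them, and 5 fell (12.5%). Of 36 of the VEGF, PDGF, angiopoietin and EGF families 2 rose (5.56%), Vegfa (0.70) and Angptl4 (0.78), and 3 fell (8.33%). Of 19 of the insulin-like family 2 rose (10.5%) and 1, Igfbp2, fell (5.26%). Of 20 fibroblast growth factors and receptors 5 fell (25.0%) and 2 rose (10.0%). Their median was -0.52, with -0.13 in libraries 01 and 02, -0.62 in 03 to 06, and -0.25 in a fit of the 12 libraries only. Fgf5 (-3.47), Fgfr4 (-2.15), Fgf1, Fgf18 (-1.90) and Fgfrl1 (-1.19) fell, and Fgf12 (0.53) and Fgfr1op2 (0.40), which are not secreted ligands, rose. Fgf1 stood at 31.9 and 16.9 CPM in NC 01 and 02 and 20.8 to 36.3 in NC 03 to 06 (median of the 6, 31.8). Fgf1 in CO was at 13.3 and 4.45 in libraries 01 and 02 and 2.67 to 8.95 in 03 to 06 (median 4.87). The groups were apart, with a change of -2.14 ± 0.34 (SE; adjusted p = 0.00108), -1.47 in libraries 01 and 02 and -2.56 in 03 to 06. Igfbp2, the main IGF binding protein of the brain, was 316 and 282 CPM in NC 01 and 02 and 248 to 477 in NC 03 to 06 (median of the 6, 299). Igfbp2 in CO was at 137 and 134 in libraries 01 and 02 and 22.1 to 147 in 03 to 06 (median 99.8). All CO libraries were lower, the change being -1.85 ± 0.39 (SE; adjusted p = 0.00569), with -1.16 in libraries 01 and 02 and -2.29 in 03 to 06. Sfrp1, a secreted inhibitor of Wnt ligands, stood at 40.2 and 41.6 CPM in NC 01 and 02 and 36.2 to 89.6 in NC 03 to 06 (median of the 6, 45.2). Sfrp1 in CO was at 19.4 and 17.5 in libraries 01 and 02 and 3.91 to 11.7 in 03 to 06 (median 9.74). It fell clear of the NC range, with a change of -2.23 ± 0.36 (SE; adjusted p = 0.00121), -1.16 in libraries 01 and 02 and -2.97 in 03 to 06. Pdgfc, a platelet-derived growth factor, fell by 1.37 ± 0.31 (SE; adjusted p = 0.00832), with -0.43 in libraries 01 and 02 and -1.82 in 03 to 06.

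Clec14a, an endothelial membrane protein of sprouting vessels, stood at 10.1 and 10.6 CPM in NC 01 and 02 and 7.07 to 16.2 in NC 03 to 06 (median of the 6, 10.4). Clec14a in CO was at 1.85 and 4.38 in libraries 01 and 02 and 0.189 to 1.4 in 03 to 06 (median 1.21). CO libraries were all below NC, with a change of -2.86 ± 0.46 (SE; adjusted p = 0.00118), -1.75 in libraries 01 and 02 and -3.91 in 03 to 06 and -3.50 without CO 02. Adcy4, an adenylate cyclase rich in endothelium, was 2.78 and 4.07 CPM in NC 01 and 02 and 4.49 to 5 in NC 03 to 06 (median of the 6, 4.51). Adcy4 in CO was at 0.718 and 2.64 in libraries 01 and 02 and 0.567 to 0.763 in 03 to 06 (median 0.737). Its groups did not overlap, with CO 02 the highest of CO and close to NC 01, and the change of Adcy4 was -2.08 ± 0.34 (SE; adjusted p = 0.00118), with -1.04 in libraries 01 and 02 and -2.8 in 03 to 06. Plat, the tissue plasminogen activator that endothelium and neurons release, stood at 93 and 74.8 CPM in NC 01 and 02 and 38.2 to 70 in NC 03 to 06 (median of the 6, 69.5). Plat in CO was at 127 and 171 in libraries 01 and 02 and 137 to 208 in 03 to 06 (median 156). Plat rose without overlap, by 1.28 ± 0.19 (SE; adjusted p = 0.00105), with 0.81 in libraries 01 and 02 and 1.53 in 03 to 06. Of 10 endothelial markers 7 were tested, 0 rose and 1 fell, and they summed to 201 to 282 CPM in NC and 122.7 to 245 in CO.

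**Figure D4:**
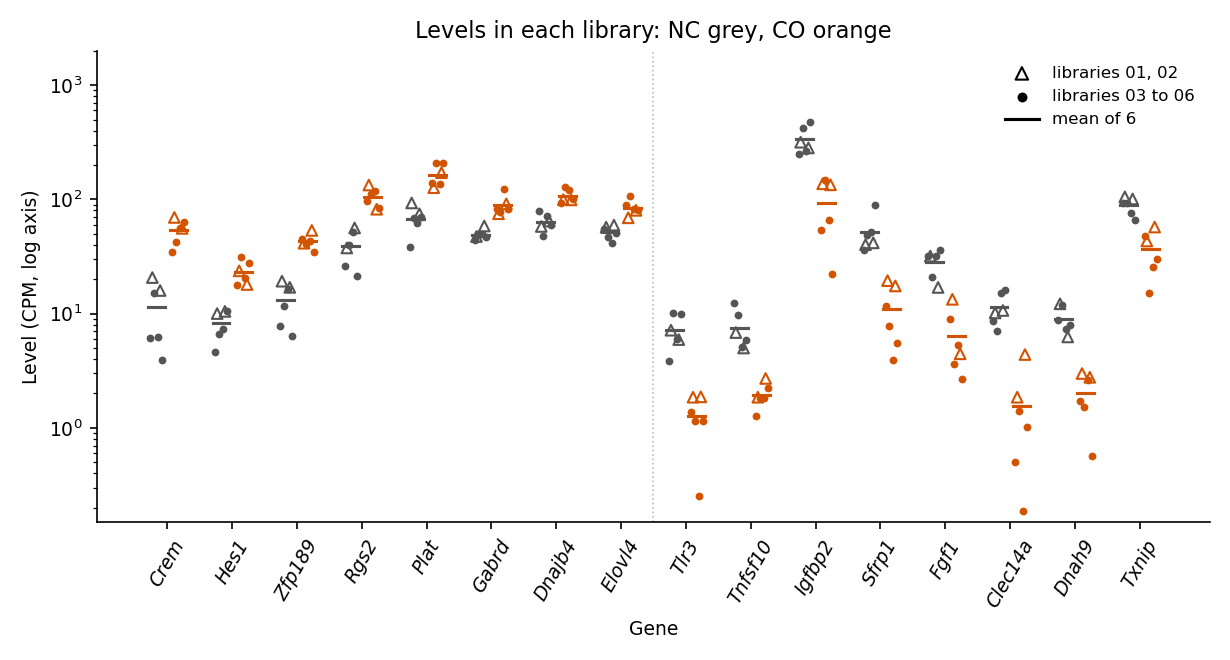
Level of 16 genes named in the text in each of the 12 libraries, in CPM on a log axis: NC in grey, CO in orange, triangles for libraries 01 and 02, dots for 03 to 06, and bars for the mean of the 6. For the 8 genes on the left that rose and the 8 on the right that fell, NC and CO libraries do not overlap.

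Falls also outnumbered rises in genes of motile cilia. Of 67 axonemal dyneins and ciliary proteins 14 fell (20.9%) and 1 rose, with a median of -0.30 (-0.33 in libraries 01 and 02, -0.29 in 03 to 06), and in libraries 03 to 06 alone 9 fell. Members that fell include Dnah5 (-2.40), Dnah8 (-2.07) and Dnah9, dynein heavy chains that make cilia beat, and Cfap44 (-2.31), Spag6l (-2.23) and Tekt2 (-1.24), parts of the axoneme. Dnah9 stood at 12.2 and 6.25 CPM in NC 01 and 02 and 7.3 to 11.9 in NC 03 to 06 (median of the 6, 8.35). Dnah9 in CO was at 2.99 and 2.77 in libraries 01 and 02 and 0.572 to 2.65 in 03 to 06 (median 2.17). Every CO library was below every NC library, and the change of Dnah9 was -2.15 ± 0.33 (SE; adjusted p = 0.00107), with -1.69 in libraries 01 and 02 and -2.47 in 03 to 06. Cfap54, needed for the central pair of the axoneme, was the member that rose, at 2.98 and 3.84 CPM in NC 01 and 02 and 2.59 to 5 in NC 03 to 06 (median of the 6, 4.14). Cfap54 in CO was at 7.18 and 6.19 in libraries 01 and 02 and 6.67 to 8.64 in 03 to 06 (median 7.43). Its change was 0.93 ± 0.19 (SE; adjusted p = 0.00513), with 0.96 in libraries 01 and 02 and 0.92 in 03 to 06. Of markers of ependyma, the ciliated lining of the ventricles, 4 of 9 tested fell. Dnah5, Cfap44 and Spag17 (-2.89) among them are already counted in the 14 above, so these markers are not separate evidence. The ependymal markers summed to 53.4 to 92.6 CPM in NC and 20.0 to 45.6 in CO. Markers of choroid plexus summed to 7.03 to 220 and 0.945 to 44.6 CPM (1 of 9 tested fell). Markers of red cells summed to 18.4 to 832 CPM in NC and 5.36 to 53.8 in CO, and 3 of 5 tested fell. Whether fewer ciliated cells were in the tissue taken was not tested.

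Among genes of DNA replication and mitosis 7 of 65 fell (10.8%, beside 6.4% of all genes) and 3 rose (4.62%, beside 6.32%). Their median was -0.28, with -0.14 in libraries 01 and 02 and -0.32 in 03 to 06. Cdk1, the kinase that starts mitosis, stood at 1.33 and 3.33 CPM in NC 01 and 02 and 1.02 to 4.78 in NC 03 to 06 (median of the 6, 2.76). Cdk1 in CO was at 1.14 and 0.709 in libraries 01 and 02 and 0.378 to 1.14 in 03 to 06 (median 0.701). The groups overlapped at their edges, with a change of -1.86 ± 0.39 (SE; adjusted p = 0.00577), -1.34 in libraries 01 and 02 and -2.13 in 03 to 06. Cenpf, a kinetochore protein of late cell cycle, changed by -2.19 ± 0.51 (SE; adjusted p = 0.00971), with -1.68 in libraries 01 and 02 and -2.76 in 03 to 06. Rbl1, a retinoblastoma relative that holds cells before S phase, was 1.33 and 2.08 CPM in NC 01 and 02 and 1.12 to 4.78 in NC 03 to 06 (median of the 6, 1.77). Rbl1 in CO was at 0.0598 and 0.387 in libraries 01 and 02 and 0 to 0.381 in 03 to 06 (median 0.0614). It fell without overlap, by 3.83 ± 0.85 (SE; adjusted p = 0.00778), with -2.92 in libraries 01 and 02 and -4.37 in 03 to 06, on 0 to 6 counts a library in CO.

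Some innate immune receptors fell and some cytokine receptors rose. Of 80 genes with symbols of Toll-like and other pattern receptors and of interferon responses 14 fell and 3 rose (median -0.19; -0.23 in libraries 01 and 02, -0.16 in 03 to 06), and in libraries 03 to 06 alone 6 fell and 0 rose. Clec14a (-2.86), the endothelial gene described above, is counted among the 14 by its symbol. Tlr3, Tlr4 (-1.97) and Tlr2 (-1.13), receptors for double-stranded RNA and for bacterial products, Nlrp3 (-1.0), the core of an inflammasome, and Ifitm1 (-1.53) fell, and Gbp1 (2.09), Irf2bp2 (0.90) and Ifit3 rose. Tlr3 stood at 7.16 and 5.93 CPM in NC 01 and 02 and 3.83 to 10.2 in NC 03 to 06 (median of the 6, 6.55). Tlr3 in CO was at 1.85 and 1.87 in libraries 01 and 02 and 0.252 to 1.39 in 03 to 06 (median 1.27). The groups did not overlap in Tlr3, whose change was -2.49 ± 0.34 (SE; adjusted p = 0.000533), with -1.82 in libraries 01 and 02 and -2.93 in 03 to 06. Ifit3, an interferon-induced antiviral protein, was 2.25 and 2.08 CPM in NC 01 and 02 and 0.679 to 3.76 in NC 03 to 06 (median of the 6, 2.17). Ifit3 in CO was at 4.54 and 4.71 in libraries 01 and 02 and 3.85 to 9.01 in 03 to 06 (median 4.96). All CO libraries exceeded NC, by 1.32 ± 0.32 (SE; adjusted p = 0.013), with 1.08 in libraries 01 and 02 and 1.42 in 03 to 06.

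Among interleukins, the TNF family and their receptors 9 of 76 rose (11.8%, beside 6.32% of all genes) and 6 fell (7.89%, beside 6.4%). Tnfrsf9 (1.27), Tnfrsf12a (1.11), Tnfrsf1b (1.01) and Il4r (0.82), all receptors, rose, and Il13ra1 (-1.94), Tnfrsf10b (-1.47) and Cd40 (-1.33) fell. Tnfsf10, the death ligand TRAIL, stood at 6.83 and 5 CPM in NC 01 and 02 and 5.15 to 12.3 in NC 03 to 06 (median of the 6, 6.34). Tnfsf10 in CO was at 1.85 and 2.71 in libraries 01 and 02 and 1.26 to 2.22 in 03 to 06 (median 1.85). No CO library reached the NC range, and the change of Tnfsf10 was -1.93 ± 0.25 (SE; adjusted p = 0.00036), with -1.39 in libraries 01 and 02 and -2.2 in 03 to 06. The markers of microglia and macrophages summed to 301 to 400 CPM in NC and 275 to 404 in CO, with 1 of 11 higher and 1 lower. Leukocyte markers were near the limit of detection: 4 of 12 were tested, 0 passed with edgeR (1 lower at an unadjusted p under 0.05, and 1 with DESeq2), Cxcr2 was at 0, and they summed to 3.05 to 7.26 CPM in NC and 2.65 to 7.42 in CO.

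**Figure D5:**
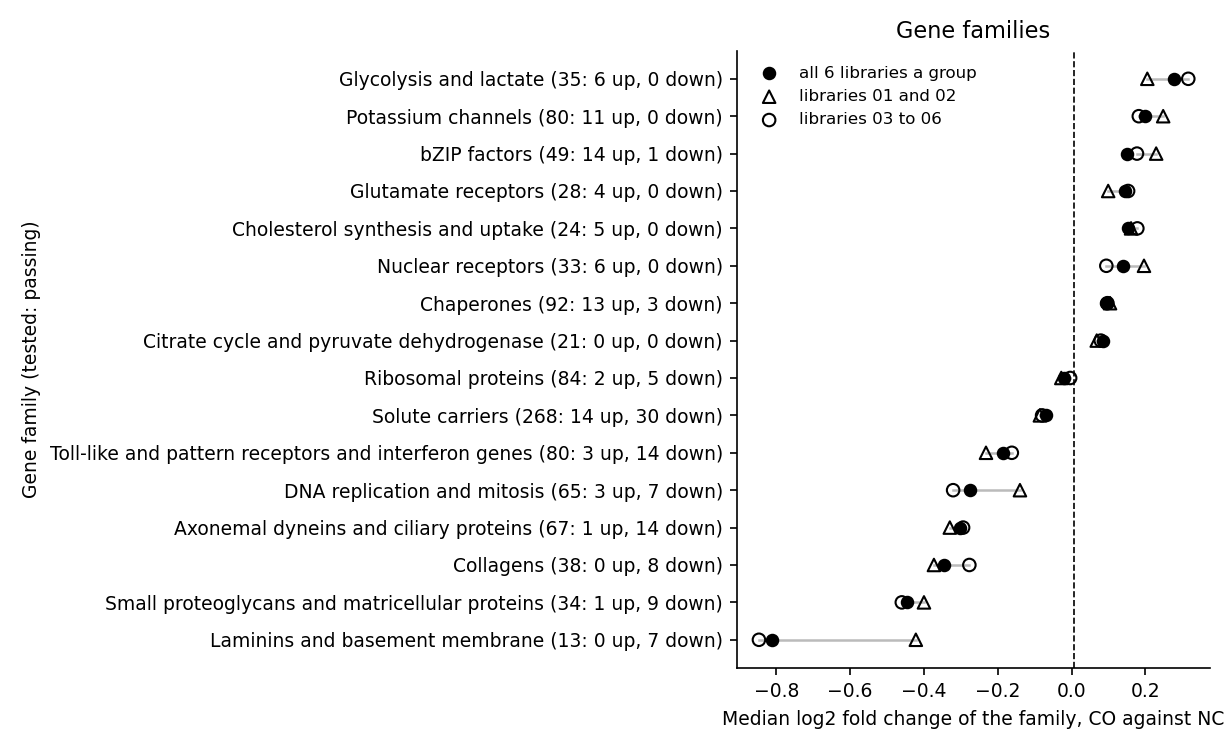
Median log2 fold change of 16 gene families in all 6 libraries a group (filled circles), in libraries 01 and 02 (triangles) and in 03 to 06 (open circles), with the number of genes tested, higher and lower beside each name and the median of all genes as a dashed line. Laminins and basement membrane genes lie lowest, at -0.81 over all libraries and -0.42 in libraries 01 and 02, and genes of glycolysis and lactate highest, at 0.28.

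Of the most abundant genes that passed, Nrgn, Kif5a and Cfl1, which rose, and Ptgds, which fell, are described here. Nrgn, or neurogranin, a calmodulin-binding protein of dendritic spines, stood at 1380 and 1812 CPM in NC 01 and 02 and 811 to 1701 in NC 03 to 06 (median of the 6, 1539). Nrgn in CO was at 2499 and 2451 in libraries 01 and 02 and 1842 to 2649 in 03 to 06 (median 2410). The lowest CO library was just above the highest NC library, and the change of Nrgn was 0.71 ± 0.19 (SE; adjusted p = 0.024), with 0.62 in libraries 01 and 02 and 0.75 in 03 to 06; it did not pass without NC 03 (adjusted p = 0.0559). Kif5a, a kinesin of axonal transport, was 1169 and 1284 CPM in NC 01 and 02 and 854 to 1265 in NC 03 to 06 (median of the 6, 1169). Kif5a in CO was at 1322 and 2178 in libraries 01 and 02 and 1327 to 2155 in 03 to 06 (median 1932). Kif5a rose without overlap by 0.68 ± 0.14 (SE; adjusted p = 0.00478), with 0.5 in libraries 01 and 02 and 0.77 in 03 to 06. Cfl1, or cofilin, which severs actin filaments, was 953 and 1164 CPM in NC 01 and 02 and 827 to 1191 in NC 03 to 06 (median of the 6, 986). Cfl1 in CO was at 1586 and 1187 in libraries 01 and 02 and 1314 to 1457 in 03 to 06 (median 1401). CO 02 (1187) lay just under the highest NC library (1191), and the change of Cfl1 was 0.46 ± 0.1 (SE; adjusted p = 0.00808), with 0.38 in libraries 01 and 02 and 0.49 in 03 to 06. Ptgds, the prostaglandin D synthase of meninges, choroid plexus and oligodendrocytes, stood at 3676 and 2830 CPM in NC 01 and 02 and 2646 to 4947 in NC 03 to 06 (median of the 6, 3455). Ptgds in CO was at 2474 and 2033 in libraries 01 and 02 and 1314 to 2865 in 03 to 06 (median 1969). It fell with overlap of the groups, by 0.88 ± 0.20 (SE; adjusted p = 0.0087), with -0.55 in libraries 01 and 02 and -1.05 in 03 to 06. Oligodendrocyte markers summed to 10009 to 21727 CPM in NC and 10873 to 21553 in CO (1 of 11 rose).

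Some large changes were in genes near 0 in the other group. Changes of the same size or larger that are not described in full, again with 1 group at or near 0, include those of Oxt (8.37), RT1-CE10 (8.21), Ccl4 (6.40), Slc6a3 (-8.59) and Fam111a (-6.19). Slc6a3, the dopamine transporter, had 47.8 and 0.648 CPM in NC 01 and 02 and 19.2 to 37.9 in NC 03 to 06, and 0.0598 and 0.322 in CO 01 and 02 and 0 in each of CO 03 to 06. Fam131a, a gene of little known function, stood at 2.98 and 2.04 CPM in NC 01 and 02 and 0 to 1.01 in NC 03 to 06 (median of the 6, 0.563). Fam131a in CO was at 62.6 and 68.5 in libraries 01 and 02 and 47.7 to 113 in 03 to 06 (median 65.5). Fam131a alone among the 69 genes described with full statistics also passed in libraries 01 and 02 by themselves (4.70, edgeR adjusted p = 0.00204); over all libraries its change was 6.16 ± 0.71 (SE; adjusted p = 0.000138), with 7.96 in libraries 03 to 06 and 6.78 without NC 01. Pcgf1, a subunit of a Polycomb complex, was 0.0663 and 0.37 CPM in NC 01 and 02 and 0 to 0.112 in NC 03 to 06 (median of the 6, 0.0893). Pcgf1 in CO was at 2.69 and 5.09 in libraries 01 and 02 and 1.64 to 6.1 in 03 to 06 (median 4.37). Its change was 4.92 ± 0.54 (SE; adjusted p = 0.00011), with 4.03 in libraries 01 and 02 and 5.73 in 03 to 06 and 5.72 without NC 02, on 0 to 8 counts a library in NC. Nol8, a nucleolar protein, rose from 0 to 5 counts a library in NC to 15 to 66 in CO, a change of 4.05 ± 0.64 (SE; adjusted p = 0.00108), with 3.5 in libraries 01 and 02 and 4.76 in 03 to 06. Hnrnpab, an RNA-binding protein, stood at 2.19 and 5.28 CPM in NC 01 and 02 and 0.563 to 2.88 in NC 03 to 06 (median of the 6, 1.4). Hnrnpab in CO was at 15.5 and 47.2 in libraries 01 and 02 and 5.55 to 35.1 in 03 to 06 (median 28). The change of Hnrnpab was 3.69 ± 0.65 (SE; adjusted p = 0.00188), with 3.05 in libraries 01 and 02 and 4.36 in 03 to 06.

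Mrpl53, a protein of the mitochondrial ribosome, spanned a wide range in CO, at 0.53 and 0.417 CPM in NC 01 and 02 and 0 to 0.112 in NC 03 to 06 (median of the 6, 0.0844). Mrpl53 in CO was at 38.7 and 0.645 in libraries 01 and 02 and 8.33 to 22.7 in 03 to 06 (median 8.82). CO 02, with 0.645 CPM, was barely above NC 01, with 0.53, and the change of Mrpl53 was 6.25 ± 0.99 (SE; adjusted p = 0.00108), with 5.36 in libraries 01 and 02 and 7.94 in 03 to 06. Mitochondrial ribosomal protein genes as a family gave 5 higher (6.94%, beside 6.32% of all genes) and 0 lower of 72 (12 and 8 at edgeR's unadjusted p, 7 and 1 with DESeq2). Fam131a, Hnrnpab, Mrpl53 and Tsc22d4 each have a second entry of the same name in the table, so how reads were divided between the entries makes these 4 uncertain.

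Serpinb6b, a protease inhibitor, stood at 2.05 and 2.5 CPM in NC 01 and 02 and 1.18 to 2.98 in NC 03 to 06 (median of the 6, 2.37). Serpinb6b in CO was at 0.179 and 0.322 in libraries 01 and 02 and 0 to 0.191 in 03 to 06 (median 0.121). It was lower in every CO library, by -4.12 ± 0.63 (SE; adjusted p = 0.00107), with -3.17 in libraries 01 and 02 and -5.05 in 03 to 06. Grifin, a galectin-like protein, varied from 5.32 to 33.5 CPM in NC and from 0 to 3.18 in CO, with 2.45 and 0.193 in CO 01 and 02. Its change was -4.01 ± 0.84 (SE; adjusted p = 0.00569), with -3.63 in libraries 01 and 02 and -4.25 in 03 to 06 and -4.72 without CO 06. Mis18a, which loads centromeric histone, was 3.78 and 6.02 CPM in NC 01 and 02 and 1.63 to 3.09 in NC 03 to 06 (median of the 6, 3.04). Mis18a in CO was at 0.419 and 0.709 in libraries 01 and 02 and 0 to 0.126 in 03 to 06 (median 0.0945). Its change was -3.88 ± 0.83 (SE; adjusted p = 0.00619), with -3.12 in libraries 01 and 02 and -5.55 in 03 to 06 and -4.67 without CO 02. Tsc22d4, a leucine zipper regulator of metabolism, stood at 30.8 and 4.95 CPM in NC 01 and 02 and 8.31 to 17.7 in NC 03 to 06 (median of the 6, 10.5). Tsc22d4 in CO was at 3.05 and 3.16 in libraries 01 and 02 and 0.0635 to 1.01 in 03 to 06 (median 0.756). Its groups did not overlap, and the change was -3.37 ± 0.7 (SE; adjusted p = 0.00529), with -2.55 in libraries 01 and 02 and -4.71 in 03 to 06.

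Ube2e3, a ubiquitin-conjugating enzyme, is given because its fitted values in libraries 01 and 02 and in 03 to 06 lie on either side of 0, the first of them close to it. It stood at 103 and 108 CPM in NC 01 and 02 and 84.3 to 102 in NC 03 to 06 (median of the 6, 94.5). Ube2e3 in CO was at 115 and 94.8 in libraries 01 and 02 and 116 to 171 in 03 to 06 (median 117). In libraries 01 and 02 there was no shift (-0.02), in 03 to 06 a change of 0.59, and over all libraries 0.39 ± 0.12 (SE; adjusted p = 0.0354); the adjusted p was above 0.05 without any of CO 05 (0.085), CO 06 (0.0696), NC 03 (0.0511), NC 04 (0.0689), NC 05 (0.0753) or NC 06 (0.0785).

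For 12 of the 69 genes another listed gene overlaps, and as the labels do not say whether strand was used in counting, their reads cannot be told apart: Trpc5, Scn3a, Grin1, Grin3b, Idi1, Col27a1, Pdgfc, Itgb4, Dnah9, Kif5a, Fam131a and Hnrnpab. Tested alone, libraries 03 to 06 passed 53 of the 69; the 16 that did not pass there were Bhlhe40, Cfap54, Dusp10, Egr1, Epha2, Fkbp9, Grin1, Htr1a, Idi1, Ifit3, Irs2, Nrgn, Ppp1r15a, Rbl1, Slc25a25 and Thbs1.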

How the data were processed

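The authors deposited a table of read counts per gene for the series, and its columns were matched to the samples by name. Per the labels' protocols the libraries were made from total RNA with a SMARTER mRNA-Seq kit. The submitters' processing notes name only mouse genome builds, whereas the gene identifiers are those of the rat, so positions in the table have no stated build and are not printed; promoters come from RefSeq (GRCr8), matched to 11116 of 16581 tested genes (10449 by symbol, 667 by a synonym unique to 1 gene, and the window farthest upstream where a gene has several). The aligner, the counter and the use of strand are not given in the labels or the file. Of the 34873 rows, 2328 carry no gene name and 1232 of these were tested.

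Counts were fitted with edgeR 4.0.16 (R 4.3.3): filterByExpr, TMM scaling, and a robust quasi-likelihood fit of all 18 libraries, so that the 3 groups share 1 estimate of the spread (common dispersion 0.0972), with Benjamini-Hochberg adjustment over 16581 genes and a threshold of 0.05. A fitted fold change of a gene with few counts depends on the small count edgeR adds and is no bound. Library summaries were tested with exact permutation over 924 splits (scipy 1.17.1). The steps were tested on simulated data. Total counts of 15111830 to 20339652 per library set the precision of each level. Gene families (78 patterns on symbols), 16 marker lists and 13 motifs were described by counts and medians with no set test; the members and lists were chosen with earlier results of these data known.

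Genes were named by rule: the 12 largest changes in each direction among protein-coding genes with a mean of 1 CPM or more and no overlap of the groups, the 6 most abundant that passed in each direction, up to 2 per family and direction and 2 per marker list by p, and up to 6 with opposite signs in libraries 01 and 02 and 03 to 06. Of these, 69 are described with full statistics; genes whose call was lost under many settings were left out, and family members given with a fold change alone were chosen after their values were seen. Library numbers are shared by the groups, and the main fit did not pair them. Deviations of same-numbered libraries from their group means correlated at -0.02 to 0.08. Even so, 3 NC libraries correlated best with the CO library of their own number. Alternatives were DESeq2 1.42.0 and limma-voom 3.58.1, other scalings and filters, the 12 libraries alone, a replicate block, each library left out, and libraries 01 and 02 or 03 to 06 alone.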

Additional observations from a re-analysis of the deposited data

Results flagged for a closer look

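The groups of 6 libraries examined were each gene described with full statistics and each library summary, in NC and in CO. Dixon's test flags a library whose gap to its nearest neighbour is large against the group's range (above the 95% critical value). It flags about 1 in 20 groups of normal, independent values, and these values are not shown to be either, so that rate is no yardstick here. Of 158 groups 13 (8.23%) held a flagged library, in each case the highest of its group. NC 03 accounted for 4 of them, as the highest library for Scn3a (42.3 CPM, next 30), Nid1 (195, next 63.7), Itgb4 (80, next 32.1) and Rbl1 (4.78, next 2.38). CO 02 was the highest of its group for Chrnb3 (0.709 CPM, next 0.179), Foxd2 (0.645, next 0.254) and Adcy4 (2.64, next 0.763), 3 genes that fell, so that in each the library lay nearest to NC. NC 02 was the highest for Gabrd (58.4 CPM, next 49.5), for Pcgf1 (0.37, next 0.112) and for the number of genes with 1 CPM or more (15190, next 15032). CO 05 was the highest for Gabrd (124 CPM, next 91.3) and Eno2 (277, next 89.3), and NC 06 for Sfrp1 (89.6, next 52.0). What sets these libraries apart was not tested.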

How the results depend on the processing

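Against 1048 genes higher and 1062 lower, libraries 01 and 02 alone gave 4 and 0 (594 at an unadjusted p under 0.05), DESeq2 on them, added after seeing the data, 38 and 15, and libraries 03 to 06 alone 367 and 551, of which 342 and 488 were also called over all libraries; each has fewer samples. With no filter beyond 1 count 2008 and 2283 of 22634 genes passed, and 382 and 706 passed once a change of at least 1 on the log2 scale was required. Leaving out each library in turn gave 784 to 1024 higher and 842 to 1113 lower. A fit of the 12 libraries alone gave 776 and 759, library size alone 804 and 1195, and the replicate block 931 and 1013, with 68 of 69 named genes called; it changed no other named call than that of Ube2e3. Ube2e3 showed no shift in libraries 01 and 02 (-0.0205) and was lost with library size alone (adjusted p = 0.0599), limma-voom (0.0741), the 12 libraries (0.0781), the block (0.0631) and a stricter filter (0.0507). DESeq2 called 69 of 69; genes lost under many settings had been left out of the 69, which partly fixes these counts. The difference in genes detected was -250 in libraries 01 and 02 (exact permutation adjusted p = 1), -468 in 03 to 06 (0.0571) and -446 to -364 with 1 library left out. With 1 left out, that in the mitochondrial share was -3.10 to -1.93 points (adjusted p 0.0217 to 0.115; it passed without NC 02 or CO 02), in processed pseudogenes 0.0051 to 0.00781 and in ribosomal RNA -0.000419 to -0.000263; the lincRNA share was 0.00298 higher in libraries 01 and 02. Causes were not tested. Family medians moved by more than their spread for 19 of 78 families in libraries 01 and 02, 4 in 03 to 06, 7 with library size alone and 1 (fibroblast growth factors) in the 12 libraries.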

Other observations

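Some of the genes with the largest rises lie next to each other in the table. Of 77 genes that rose by 3 or more on the log2 scale, 14 (18.2%) have an adjacent tested gene that also rose by 3 or more, beside 0.905% of all tested genes with such a neighbour. Of 112 that fell by 3 or more, 6 (5.36%) have one, beside 1.27%. Over all genes that passed, the shares were 15.2% beside 12.1% for rises and 14.8% beside 12.2% for falls. Adjacent means next among the tested genes, at any distance. Neighbours that rose together include Ccl3 (5.48) and Ccl4 (6.40), chemokines 13465 bases apart, and Oxt (8.37) and Avp (6.90), the hypothalamic hormones, 9958 bases apart. Npvf (7.95) and Nfe2l3 (3.06), 809902 bases apart, are counted too. Of those that fell together, Tbata (-3.95) and Adamts14 (-3.15) lie 8188 bases apart, and LOC688459 (-6.91) and Tfap2d (-3.28) 1880044 bases apart. These distances are in the table's own coordinates, whose build is not stated.

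Membrane transporters changed in both directions. Of 268 solute carriers 30 fell (11.2%, beside 6.4% of all genes) and 14 rose (5.22%, beside 6.32%), with a median of -0.07. Organic cation and anion carriers of barrier tissue such as Slc22a8 (-1.0) and Slc22a2 (-2.38) fell. Of the amino acid carriers of the Slc7 group, Slc7a9 (-2.83), Slc7a11 (-1.34), Slc7a7 (-1.23) and Slc7a3 (-0.92) fell and Slc7a4 (0.62) rose. Of the sugar carriers Slc2a5 (1.0), Slc2a1 (0.83), Slc2a6 (0.47) and Slc2a8 (0.37) rose and Slc2a12 (-0.61) fell. These members were chosen after their values were seen.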
